A study of Mus musculus with 53 samples.

Results

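Titin, nebulin and their relatives are the scaffold proteins that give the sarcomere, the contractile unit of striated muscle, its fixed geometry. The 9 genes described here are Ttn, Neb, Myom1, Myom2, Myom3, Mybpc1, Mybph, Tcap and Ldb3. They were chosen by symbol, and all 9 are present among the 55573 genes of the bulk tables and the 57010 genes of the single-cell matrices. A further list of 38 Z-disc, M-band and filament genes, called partner genes here, gives the setting of these 9.

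The tissue was mouse cerebellum, whose granule cells descend from Atoh1-expressing progenitors. Insm1cKO mutants carried Atoh1Cre with homozygous floxed Insm1, and Tead1;2cKO mutants carried Atoh1Cre with homozygous floxed Tead1 and Tead2. Controls were Insm1fl/fl or Tead1fl/fl;Tead2fl/fl without Cre, so that Cre itself was present only in mutants. Atoh1Cre acts in the granule cell lineage and in other descendants of the rhombic lip, and the remaining cells of the cerebellum are expected to keep their floxed alleles. At postnatal day 2 (P2), total RNA of single cerebella was sequenced in bulk from 4 controls and 4 mutants of the Insm1 allele and from 3 controls and 4 mutants of the Tead1/2 alleles. At postnatal day 7 (P7), cells of single cerebella were sequenced with a split-pool kit in 2 controls and 3 mutants of each allele. In each P7 group, number 1 was dissected with all lobules and the higher numbers without lobules IX and X. The Insm1 and Tead1/2 bulk libraries are separate batches in the labels, so mutants are tested only against controls of their own allele. The study asked whether muscle genes are held down in this neural lineage.

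Titin, encoded by Ttn, runs from the Z-disc to the M-band and acts as a spring and a ruler for the thick filament. Nebulin, encoded by Neb, lies along the thin filament of skeletal muscle. The myomesins, encoded by Myom1, Myom2 and Myom3, crosslink thick filaments at the M-band. Mybpc1 encodes the slow skeletal form of myosin-binding protein C and Mybph the related myosin-binding protein H. Tcap (telethonin) caps the titin end at the Z-disc, and Ldb3 (ZASP or Cypher) binds alpha-actinin there. These genes are known as products of differentiating striated muscle and not of neurons, although several have low expression elsewhere.

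In RefSeq on GRCm38.p6, the spans are chr2:76703980-76982557 for Ttn, chr2:52136640-52338798 for Neb, chr17:71003332-71126856 for Myom1, chr8:15057653-15133420 for Myom2 and chr4:135758800-135815571 for Myom3. Those of the other genes are chr10:88518279-88605229 for Mybpc1, chr1:134193418-134201237 for Mybph, chr11:98383811-98384953 for Tcap and chr14:34526699-34590314 for Ldb3. Spans of other genes overlap Neb, with 2 lncRNA genes, and Mybph, with the adenosine receptor gene Adora1. The strand setting of the counting is not given in the sources used here, so reads of such neighbours may be shared.

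Promoter windows from 250 bases before to 50 bases after a transcript start came from a RefSeq promoter table with entries for 6 of the 9 genes (7 windows, GRCm38.p6). The start a window is set on need not be the outer end of the gene's span. They are shown because TEAD factors bind the MCAT element CATTCC and myogenic factors bind E-boxes, CANNTG. Ttn and Mybph are printed as the genes with an MCAT match among the 6, Mybpc1 as a gene with 3 E-boxes and Ldb3 as a gene with no match to any of the motifs searched. Capitals mark matches to MCAT, E-box or MEF2.
Ttn, chr2:76982498-76982797, minus strand: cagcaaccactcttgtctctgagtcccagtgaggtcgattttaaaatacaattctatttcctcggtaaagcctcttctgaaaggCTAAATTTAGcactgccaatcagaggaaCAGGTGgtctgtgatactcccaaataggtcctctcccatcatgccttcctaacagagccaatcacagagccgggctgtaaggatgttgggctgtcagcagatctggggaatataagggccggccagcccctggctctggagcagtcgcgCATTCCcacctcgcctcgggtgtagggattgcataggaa
Mybph, chr1:134193198-134193497, plus strand: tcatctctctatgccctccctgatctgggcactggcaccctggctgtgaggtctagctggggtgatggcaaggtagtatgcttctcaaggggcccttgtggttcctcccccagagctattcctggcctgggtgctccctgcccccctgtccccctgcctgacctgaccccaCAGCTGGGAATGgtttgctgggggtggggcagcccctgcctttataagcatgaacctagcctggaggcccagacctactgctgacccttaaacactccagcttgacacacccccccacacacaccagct
Mybpc1, chr10:88605103-88605402, minus strand: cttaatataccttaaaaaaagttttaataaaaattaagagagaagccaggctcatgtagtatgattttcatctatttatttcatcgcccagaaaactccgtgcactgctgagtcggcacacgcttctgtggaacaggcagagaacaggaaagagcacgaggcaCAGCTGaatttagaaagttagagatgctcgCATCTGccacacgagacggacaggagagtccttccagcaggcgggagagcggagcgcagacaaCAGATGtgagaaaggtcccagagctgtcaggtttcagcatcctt
Ldb3, chr14:34588632-34588931, minus strand: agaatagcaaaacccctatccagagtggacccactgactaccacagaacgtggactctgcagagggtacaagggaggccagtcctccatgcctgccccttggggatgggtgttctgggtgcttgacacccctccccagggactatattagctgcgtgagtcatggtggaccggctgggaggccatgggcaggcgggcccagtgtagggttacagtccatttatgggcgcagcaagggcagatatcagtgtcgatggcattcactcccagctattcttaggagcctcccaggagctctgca

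Motifs were searched on both strands of each window. In Ttn, CATTCC starts 12 bases after the start site, the E-box CAGGTG lies at -138 and a MEF2 match at -166. In Mybph, the E-box CAGCTG at -79 is followed directly by GGAATG, the MCAT element read on the other strand, at -73. Mybpc1 has E-boxes at -87, -57 and 7, of which the first is CAGCTG. Among 32851 promoter windows of the same length, 14.7% held an MCAT match, 72.3% an E-box, 16.3% the form CAGCTG, which is also counted among the E-boxes, and 3.19% a MEF2 match. These matches describe letters in the windows and no binding was examined here.

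Bulk libraries held 28066643 to 64518751 expected counts. P7 libraries held 2224 to 5746 cells after filtering, with medians of 4358 to 7826 transcript molecules (UMIs) per cell. Barcodes shared between P7 libraries numbered 0. Scrublet marked 23.5% to 58.9% of P7 barcodes as doublets, and these barcodes were left out unless stated. In P2 cerebellum all 12 granule progenitor markers and all 14 granule neuron markers were measured above the low-count filter. Insm1 was at 30.8 to 72.0 CPM (counts scaled to library size) in P2 controls and at 8.45 to 16.1 CPM in mutants. Tead2 was at 22.3 to 25.7 CPM in Tead1/2 P2 controls and at 17.4 to 19.5 CPM in Tead1/2 mutants 1 to 3. The library labelled Tead1/2 mutant 4 had 25.9 CPM of Tead2, above all 3 controls, which goes against its label. The Tead1/2 differences at P2 are therefore given with and without it. That library was known from earlier work on these data to stand apart, so its removal was not blind to its levels. It expressed the X-inactivation transcript Xist, as did Tead1/2 control 2. The other Tead1/2 libraries expressed the Y-linked Ddx3y instead. Tead1 did not separate the P2 groups (34.7 to 53.8 against 36.9 to 50.2 CPM). At P7 the kept cells of Tead1/2 mutants had 1164 to 1370 CPM of Tead1 against 610 and 614 CPM in controls. Insm1 at P7 was at 55.0 and 60.1 CPM in controls and at 7.04 to 15.7 CPM in mutants, and Tead2 at 27.8 and 31.2 CPM against 7.36 to 8.93 CPM. Whether the counted part of Tead1 lies in the floxed region is not given in the sources used here, so Tead1 does not check the labels.

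In Insm1 mutants at P2, 6 of the 8 scaffold genes tested were higher than in controls, and none was lower. A gene counts as called at a Benjamini-Hochberg adjusted p under 0.05 in edgeR's quasi-likelihood test over all genes, and 0.48% of all 19582 genes tested were called higher. The median log2 difference was 1.14 over the 8 genes and 0.01 over all genes. Tcap did not pass the filter on low counts and was not tested. Mybph and Myom2, with at most 3 and 14 counts in a control, passed that filter through the mutant libraries. Without the filter 6 of the 9 genes were called. More muscle-like cells and more RNA per cell cannot be told apart in bulk tissue.

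Ttn had 14.4, 20.05, 12.4 and 15.04 CPM in the 4 Insm1 controls and 87.3, 93.4, 66.6 and 111 CPM in the 4 mutants. Every mutant was above every control, with group means of 15.5 ± 3.27 and 89.7 ± 18.5 CPM (SD, n = 4 each). The log2 difference was 2.54 (SE 0.18, edgeR adjusted p = 0.000269). Neb had 1.71, 2.04, 1.74 and 1.62 CPM in controls and 4.53, 4.85, 2.598 and 5.33 CPM in mutants. These groups did not overlap either, and the Neb difference was 1.29 on the log2 scale (SE 0.21, edgeR adjusted p = 0.0244).

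Among the M-band crosslinkers, Myom2 and Myom3 rose and Myom1 did not pass the test. Myom2 was near its detection limit in controls, with 4, 14, 1 and 1 counts (0.0966, 0.376, 0.0301 and 0.02997 CPM). In mutants it had 76, 46, 18 and 48 counts (1.85, 1.35, 0.599 and 1.52 CPM). The Myom2 groups did not overlap and differed by 3.27 on the log2 scale (SE 0.58, edgeR adjusted p = 0.0370). Myom3 had 1.35, 1.18, 1.23 and 1.17 CPM in controls and 2.95, 2.43, 2.00 and 2.38 CPM in mutants, a log2 difference of 0.99 (SE 0.16, adjusted p = 0.0226). Myom1 lay between 1.44 and 1.98 CPM in controls and between 1.73 and 2.95 CPM in mutants. Its groups overlapped, and the log2 difference was 0.53 (SE 0.19, adjusted p = 0.428).

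Both myosin-binding genes rose. Mybpc1 was well measured in every control, with 9.90, 9.77, 10.4 and 8.78 CPM. The 4 mutants had 15.7, 14.5, 13.1 and 13.3 CPM, all above the controls, for a log2 difference of 0.55 (SE 0.09, adjusted p = 0.0244). Mybph had 3, 2, 3 and 0 counts in controls and 29, 27, 12 and 23 counts in mutants, so that every mutant was above every control. Its level went from 0.0541 ± 0.0390 to 0.657 ± 0.175 CPM (SD, n = 4 each), a log2 difference of 3.51 (SE 0.46, adjusted p = 0.00652).

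Neither Z-disc gene was called at P2. Ldb3 had 1.42, 0.966, 1.41 and 1.77 CPM in controls and 1.92, 1.81, 1.83 and 1.87 CPM in mutants, so that every mutant was above every control. Ldb3 had a mean of 1.39 ± 0.329 CPM in controls and 1.86 ± 0.0495 CPM in mutants (SD, n = 4 each). Its log2 difference was 0.43 (SE 0.19) with an edgeR adjusted p of 0.541 and an unadjusted p of 0.0452. Tcap reached 13 counts summed over the 4 controls and 12 over the 4 mutants. It did not pass the low-count filter.

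**Figure D1:**
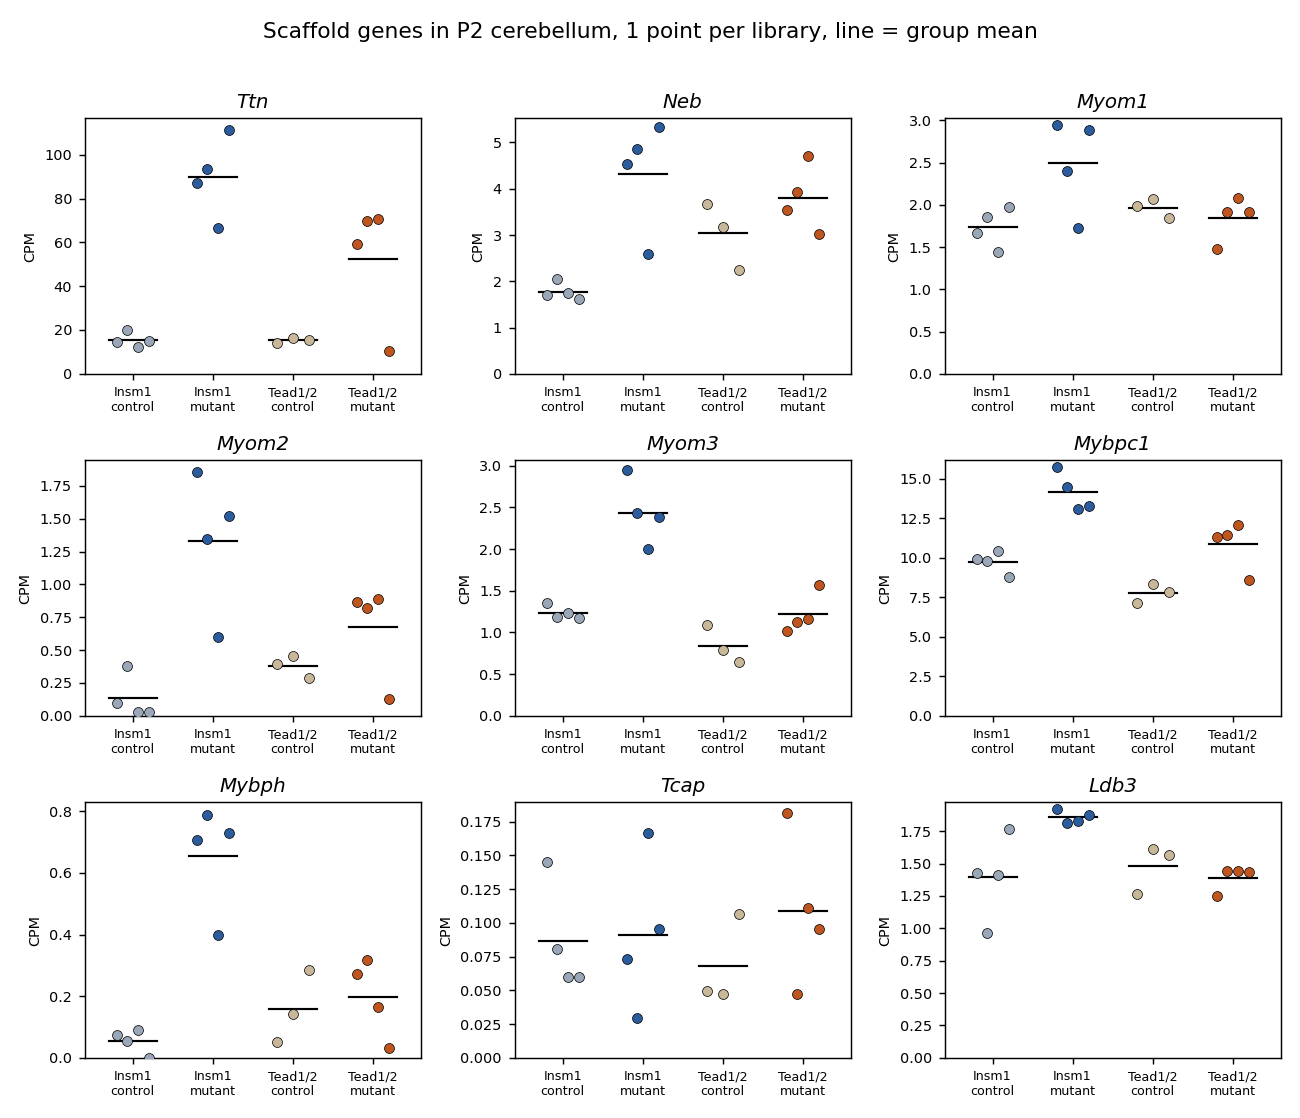
Level of each scaffold gene (CPM, linear axis from 0) in the 15 P2 bulk libraries, 1 point per library and a line at the group mean. For Ttn the Insm1 mutants sit between 66.6 and 111 CPM, above all controls, and the library labelled Tead1/2 mutant 4 sits at 10.3 CPM, apart from the other Tead1/2 mutants.

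How firmly these calls stood differed by gene. Ttn was called in all 14 alternative fits of this comparison and Mybph in 13. Mybpc1 was called in 8, Myom3 in 7, and Neb and Myom2 in 6 of the 14. Leaving out Insm1 control 1, control 4, mutant 2 or mutant 4 left 2 genes called, and leaving out control 2 or control 3 left 3. With the library number as a replicate block 1 gene was called, although no label pairs these libraries. All 4 Insm1 controls and mutants 1 and 2 expressed the X-inactivation transcript Xist, and with a term for sex 4 genes were called.

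In the Tead1/2 comparison at P2 with all 7 libraries, 0 of the 8 tested scaffold genes were called, as were 0% of all 20247 genes. At an unadjusted p under 0.05 edgeR found 4052 genes (20%), and DESeq2 called 1026 genes, Mybpc1 among them. Ttn had 14.3, 16.2 and 15.5 CPM in the 3 controls, 59.5, 69.9 and 70.7 CPM in mutants 1 to 3, and 10.3 CPM in the library labelled mutant 4. The first 3 mutants were above every control and the last was below every control. With all libraries the Ttn difference was 1.79 on the log2 scale (SE 0.49, adjusted p = 0.115).

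Without the library labelled mutant 4, Ttn, Mybpc1 and Myom2 were called, against 1.98% of 20234 genes called higher. The Ttn difference was then 2.12 (SE 0.08, edgeR adjusted p = 1.61e-06). That library was left out with its levels known, so these calls are not independent of the choice. Mybpc1 had 7.13, 8.36 and 7.85 CPM in controls, 11.3, 11.5 and 12.1 CPM in mutants 1 to 3 and 8.61 CPM in the library labelled mutant 4. Its difference was 0.48 (SE 0.12, adjusted p = 0.101) with that library and 0.58 (SE 0.09, adjusted p = 0.00913) without it. Myom2 had 0.398, 0.451 and 0.284 CPM in controls, 0.862, 0.823 and 0.887 CPM in mutants 1 to 3 and 0.128 CPM in the library labelled mutant 4. Its difference was 0.85 (SE 0.48, adjusted p = 0.349) with that library and 1.14 (SE 0.25, adjusted p = 0.0459) without it.

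The other members did not pass in either fit. Neb lay between 2.24 and 3.68 CPM in Tead1/2 controls and between 3.03 and 4.71 CPM in mutants, and the groups overlapped. Myom3 was 0.839 ± 0.232 CPM in controls (SD, n = 3) and 1.22 ± 0.238 CPM in mutants (SD, n = 4). For Mybph, means were 0.159 CPM in controls and 0.197 CPM in mutants. With all libraries the log2 differences were 0.31 for Neb, 0.50 for Myom3, 0.53 for Mybph, -0.10 for Myom1 and -0.09 for Ldb3, with edgeR adjusted p-values from 0.272 for Myom3 to 0.798 for Ldb3. Without the library labelled mutant 4 they were 0.40, 0.37, 0.81, -0.12 and -0.10 in the same order, with adjusted p-values from 0.266 for Neb to 0.790 for Ldb3.

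Whether both alleles differed in their effect was tested directly over the 15 libraries. No scaffold gene passed in edgeR, and 0% of 20837 genes did. At an unadjusted p under 0.05 edgeR found 1435 genes (6.89%), and DESeq2 called 14 genes with 0 of the 9 among them. The Insm1 difference exceeded the Tead1/2 difference by 2.99 for Mybph (SE 0.91, unadjusted p = 0.00462, adjusted p = 0.541). It exceeded it by 0.97 for Neb (SE 0.30, unadjusted p = 0.00602, adjusted p = 0.561) and by 0.75 for Ttn (SE 0.56, adjusted p = 0.866). Mybpc1 had a gap of 0.06 (SE 0.15). Without the library labelled Tead1/2 mutant 4 the gaps were 2.72 for Mybph (SE 0.80, adjusted p = 0.544), 0.88 for Neb (SE 0.31, adjusted p = 0.617), 0.41 for Ttn (SE 0.23, adjusted p = 0.790) and -0.04 for Mybpc1 (SE 0.12, adjusted p = 0.982), so that the Ttn gap was smaller and the Mybpc1 gap changed sign. No scaffold gene passed in that fit either.

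Genes with the P2 profile most like Ttn were ranked by the root-mean-square difference of centred log2 CPM over the 15 libraries, among 16367 genes. The profiles are centred over both alleles, so a difference between their batches enters the ranking. A pseudocount of 0.5 CPM was added first, which shrinks the fold differences of genes at or below that level. Myl1, at 0.0301 to 0.590 CPM in Insm1 controls, is 1 of these, and so are Mybph and Tcap. For such genes the distance depends on the pseudocount. The closest were Myl1, a fast skeletal myosin light chain (0.224), and Klhl31, a kelch protein of skeletal muscle (0.248). Gm28653 (0.347), the fast regulatory light chain Mylpf (0.359) and the muscle cadherin Cdh15 (0.373) followed. The other scaffold genes were farther from Ttn, from 0.664 for Myom2 to 1.21 for Tcap. In the library labelled Tead1/2 mutant 4, Myl1 was at 0.191 CPM and Cdh15 at 0.957 CPM, against 2.36 to 3.18 and 8.61 to 11.04 CPM in Tead1/2 mutants 1 to 3.

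Some of the 38 partner genes also rose at P2. In Insm1 mutants 24 were tested and 7 were called higher, against 0.48% of all 19582 genes. None was called lower, and the median log2 difference was 0.16. Partner genes with few counts in controls could pass the low-count filter through the mutant libraries, so the share over all genes is no even background. Called genes included Lmod3 (5.54, adjusted p = 0.00259), a leiomodin that nucleates thin filaments, Myoz2 (4.48, adjusted p = 0.00547), a calcineurin-binding Z-disc protein, and Trim55 (4.44, adjusted p = 0.00259), a titin-binding ubiquitin ligase. The sarcomeric actinin Actn2 differed by 1.56 and the intermediate filament gene Des by 1.42. Nebl (nebulette), a nebulin relative, rose by 0.36 (adjusted p = 0.0352). The cytoskeletal linker Obsl1 had 22.9 to 28.4 CPM in controls and 21.3 to 25.4 CPM in mutants (-0.04, adjusted p = 0.915). The nebulin-related Nrap had 0.241 to 0.483 CPM in controls and 0.381 to 0.673 CPM in mutants (0.65, adjusted p = 0.527), and neither passed. In Tead1/2 mutants, 0 of 25 tested partners were called with all libraries, as were 0% of all 20247 genes. Without the library labelled mutant 4, 5 of 24 were called, against 1.98% of all 20234 genes called higher. For Tead1/2, Obsl1 differed by 0.20 and Nrap by 0.58 with that library (edgeR adjusted p = 0.213 and 0.236). Without it they differed by 0.26 and 0.69 (edgeR adjusted p = 0.0885 and 0.158). Nebl had 61.6 to 63.0 CPM in Tead1/2 controls and 79.7 to 86.5 CPM in mutants 1 to 3. It had 60.8 CPM in the library labelled mutant 4.

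Markers of muscle cells moved with the scaffold genes at P2. Of 21 skeletal myogenic markers 18 were tested. In Insm1 mutants, where 0.48% of all 19582 genes were called higher, 15 of these markers were. Markers with few or no counts in controls could pass the low-count filter through the mutant libraries. The share over all genes is thus no even background for them. Their summed level was 20.3 to 37.9 CPM in controls, where 2 to 6 of them were at 0, and 118 to 212 CPM in mutants, where at most 1 was at 0. In Tead1/2 libraries the sum was 25.6 to 28.3 CPM in controls, 135 to 188 CPM in mutants 1 to 3 and 28.6 CPM in the library labelled mutant 4. In Insm1 mutants 1 of 2 tested cardiac muscle markers and 1 of 8 smooth muscle and mural markers were called higher. None of the mature fast muscle (4 tested), satellite cell (5), tendon (3) or Schwann cell (3) markers was. The part of muscle cells around the cerebellum in these values was not tested.

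At P7 all 9 scaffold genes were called higher in Insm1 mutants and all 9 in Tead1/2 mutants, in counts summed over the kept cells of each library. Tcap, with at most 3 UMIs in a control, passed the low-count filter through the mutant libraries. Its Insm1 call held in 6 of 12 alternative fits. The background was broad, with 17.4% of 19558 genes called higher for Insm1 and 24.1% for Tead1/2. The median log2 difference of the 9 genes was 4.82 for Insm1 and 7.31 for Tead1/2.

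Ttn had 121 and 74.0 CPM in the Insm1 controls and 3845, 4722 and 1898 CPM in the mutants. In the Tead1/2 libraries it had 45.1 and 59.3 CPM in controls and 13827, 12130 and 9928 CPM in mutants. Both sets of mutants lay far above their controls, by 5.15 (SE 0.42, edgeR adjusted p = 1.13e-05) and 7.84 (SE 0.48, adjusted p = 7.87e-07) on the log2 scale. Both in the dissection with all lobules (number 1) and in the other, every Ttn value of a mutant was above that of its control. Neb went from 17.7 and 8.64 CPM to 370, 519 and 88.1 CPM in Insm1 mutants, and from 7.10 and 8.74 CPM to 1421, 995 and 1012 CPM in Tead1/2 mutants. The Neb differences were 4.59 (SE 0.68) and 7.18 (SE 0.77).

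All 3 myomesins rose at P7, including Myom1, which had not passed at P2. Myom1 had 4.47 and 3.31 CPM in Insm1 controls, 48.2, 61.3 and 17.9 CPM in Insm1 mutants, 4.96 and 3.80 CPM in Tead1/2 controls and 165, 137 and 129 CPM in Tead1/2 mutants. The differences were 3.43 and 5.02 for Myom1, 4.97 and 7.99 for Myom2, and 4.96 and 7.65 for Myom3 (Insm1 and Tead1/2 in turn). Myom2 had 0.470 to 1.61 CPM in the 4 controls, 48.3, 64.8 and 18.1 CPM in Insm1 mutants and 179, 154 and 129 CPM in Tead1/2 mutants. Myom3 had 0.822 to 1.85 CPM in the controls, 63.2, 68.7 and 25.2 CPM in Insm1 mutants and 193, 163 and 151 CPM in Tead1/2 mutants.

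The myosin-binding genes also rose. Mybpc1 had 15.3 and 11.3 CPM in Insm1 controls and 237, 294 and 60.2 CPM in the mutants (3.88, SE 0.58), and 7.63 and 5.47 CPM against 782, 636 and 576 CPM for Tead1/2 (6.65, SE 0.66). Mybph was below 0.5 CPM in all 4 controls and reached 13.5, 17.5 and 6.13 CPM in Insm1 mutants and 46.6, 38.8 and 39.0 CPM in Tead1/2 mutants.

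Both Z-disc genes rose, with Tcap at far fewer UMIs. Ldb3 rose by 4.99 (SE 0.68) and 7.32 (SE 0.70), from 0.822 to 1.33 CPM in controls to 12.4 to 65.0 CPM in Insm1 mutants and 127 to 159 CPM in Tead1/2 mutants. Tcap had 2 and 0 UMIs in the Insm1 controls and 13, 21 and 1 UMIs in the mutants. The count of 0 allows up to 0.184 CPM. Its Insm1 difference of 3.25 (SE 1.00, adjusted p = 0.0305) was no longer called without Insm1 control 1, control 2, mutant 1 or mutant 2, nor with the library number as a replicate block (3.23, SE 1.11, adjusted p = 0.0614). In Tead1/2 mutants Tcap had 88, 86 and 139 UMIs against 3 and 2 in controls (4.60, SE 0.64, adjusted p = 0.000195).

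**Figure D2:**
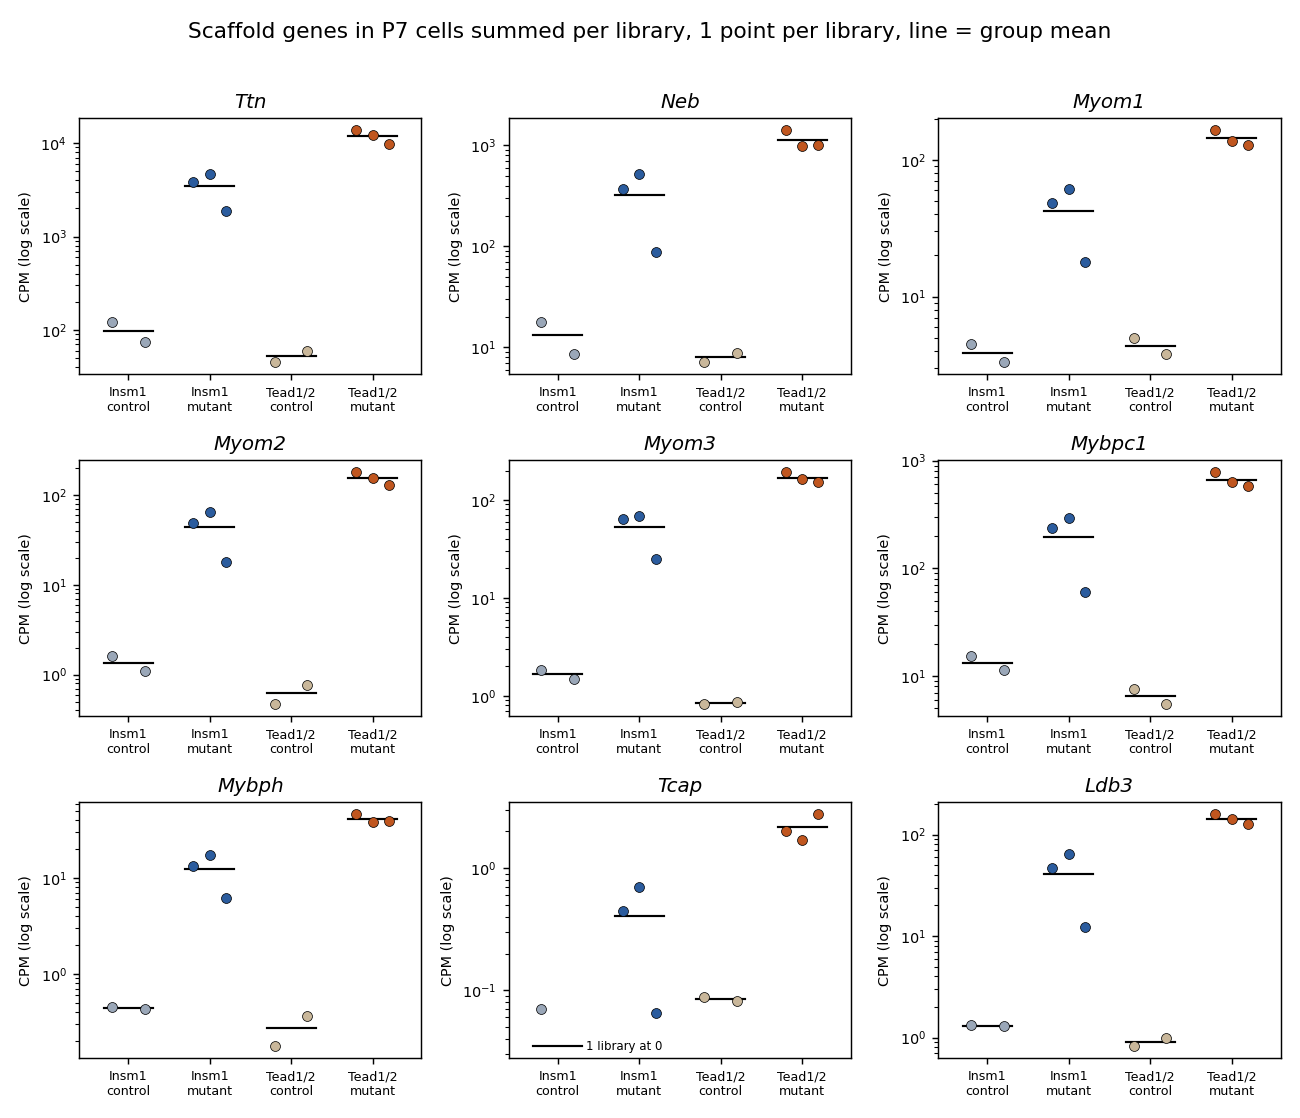
Level of each scaffold gene (CPM, log scale) in the kept cells of the 10 P7 libraries, 1 point per library and a line at the group mean. Every mutant library of both alleles lies above its controls except for Tcap, where Insm1 mutant 3 holds 1 UMI.

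Insm1 mutant 3 was the lowest Insm1 mutant for all 9 genes in kept cells. Scrublet removed 81.9% of its barcodes with at least 1000 CPM of Ttn, against 63.9% and 66.6% in the other Insm1 mutants and 44.8% to 63.5% in the Tead1/2 mutants. These shares exceed the removal over all barcodes, which was 34.3% to 53.5% in Insm1 mutants and 23.5% to 40.9% in Tead1/2 mutants. With marked doublets kept, Ttn was at 4050, 4746 and 3923 CPM in the Insm1 mutants and at 15067, 13322 and 9085 CPM in the Tead1/2 mutants, and all 9 genes were again called for Insm1 (18.6% of genes called higher) and for Tead1/2 (25.9%). The median log2 difference of the 9 genes was then 5.74 for Insm1, against 4.82 without the marked doublets, and 7.40 for Tead1/2, against 7.31. With doublets kept, Insm1 mutant 3 was still the lowest of the Insm1 mutants for Ttn, but close to mutant 1.

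The mutant effects of both alleles at P7 were compared with each other in the same fit, where 2.83% of 19558 genes were called in either direction. Of the 9 genes, Ttn was called, with an Insm1 effect smaller by 2.69 on the log2 scale than that of Tead1/2 (SE 0.48, edgeR adjusted p = 0.0186). All other estimates had the same sign, from -1.35 for Tcap to -3.02 for Myom2, and did not pass. This count moved with the setting: 8 genes were called with doublets kept (3.68% of genes), with a Ttn value of -1.69, 8 without Insm1 mutant 3, and 3 with the library number as a replicate block. It fell to 0 without Insm1 control 1, Tead1/2 control 1 or Tead1/2 control 2, and to 0 over cells outside the muscle-marker clusters described next (0.761% of genes). In controls, Ttn was at 74.0 and 121 CPM for Insm1 and at 45.1 and 59.3 CPM for Tead1/2, but at 36.9 and 48.8 against 35.5 and 42.9 CPM with doublets kept, and at 42.9 and 44.1 against 45.3 and 59.5 CPM outside those clusters.

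**Figure D3:**
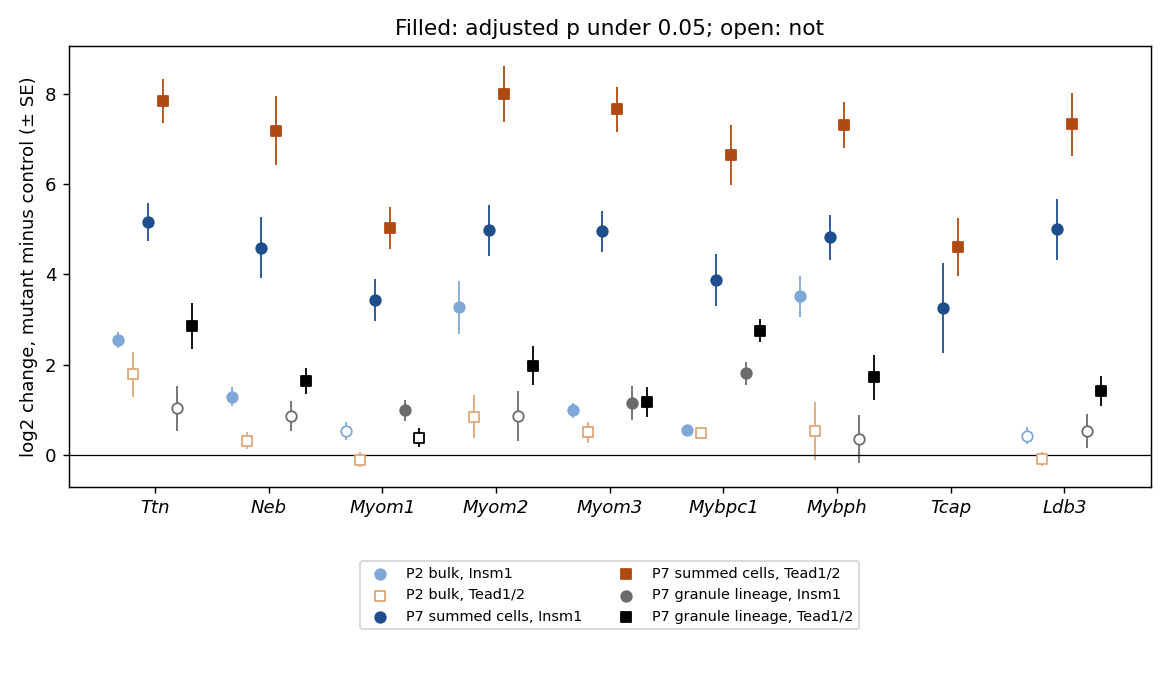
log2 difference of mutant minus control with its SE for each scaffold gene, in P2 bulk, in all kept P7 cells summed per library and in P7 granule lineage cells. Filled symbols have an adjusted p under 0.05; the summed P7 values of Tead1/2 reach 7.99 (Myom2), and those within the granule lineage reach 2.86 (Ttn).

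At P7, 30 of the 38 partner genes were called higher for Insm1 and 36 for Tead1/2, and none was called lower. The highest fitted log2 differences among them were 7.15 for Trim55, 5.54 for the leiomodin Lmod2 and 5.53 for Lmod3 in Insm1 mutants. In Tead1/2 mutants they were 8.14 for Myot (myotilin), 7.87 for the actin-binding Xirp1 and 7.69 for Myoz2. On the log2 scale, Obsl1 differed by 2.02 and 3.47 (Insm1 and Tead1/2 in turn), Nebl by 1.91 and 1.08 and Nrap by 2.57 and 2.54. Skeletal myogenic markers were called higher for 20 and 21 of 21 genes, with sums of 23.2 to 55.5 CPM in controls, 808 to 1975 CPM in Insm1 mutants and 3932 to 5233 CPM in Tead1/2 mutants. Of 12 granule progenitor markers 10 and 11 were lower, where 2583 and 4069 of all 19558 genes were called lower (Insm1 and Tead1/2 in turn). Of 14 granule neuron markers 4 and 2 were called higher and 6 and 7 lower. Markers of other cells are given beside the 17.4% and 24.1% of all genes called higher. Of 8 endothelial markers 7 were called higher and 1 lower for Insm1, where the controls kept 0 endothelial-like cells and the mutants 31 to 56, and 0 higher and 2 lower for Tead1/2. Their summed level was 34.2 and 35.1 CPM in Insm1 controls and 91.7 to 185 CPM in the mutants. Smooth muscle and mural markers were called higher for 4 and 5 of 9 tested genes, mature fast muscle markers for 3 and 8 of 8, astroglia markers for 4 and 4 of 10 and microglia markers for 3 and 1 of 8 (Insm1 and Tead1/2 in turn), the last of which is below the share of all genes. The part of these cells in the summed scaffold values is described by cluster next and was not otherwise tested.

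Nearly all scaffold UMIs in the kept cells of the mutants came from a small set of cells. Cells were grouped into 33 clusters without the scaffold, partner and skeletal muscle genes. Clusters 1, 25, 27 and 30 carried at least 9 of the 21 skeletal myogenic markers, a limit set after the data were seen. They held 11.98%, 13.01% and 12.4% of the kept cells of the Insm1 mutants and 19.8%, 25.5% and 19.4% of those of the Tead1/2 mutants. Insm1 controls held 4 of 4991 and 2 of 3529 such cells (0.0801% and 0.0567%). Tead1/2 controls held 0 of 5264 and 0 of 3609, which allows up to 0.0570% and 0.0831%. These limits cover counting error only.

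All shares in this paragraph are of UMIs in kept cells. The 4 clusters held 98.2%, 98.4% and 96.3% of these Ttn UMIs in the Insm1 mutants and 99.2%, 96.6% and 98.3% in the Tead1/2 mutants. Marked doublets were not clustered. The Insm1 mutants had 282829 Ttn UMIs in kept cells and 1541520 with doublets kept, and the Tead1/2 mutants 1717291 and 5572567. Apart from Tcap, whose counts were few, Mybpc1 had the largest share of UMIs elsewhere in the Insm1 mutants: the clusters held 90.7%, 90.8% and 53.2% of them in Insm1 mutants, and 96.1% to 97.05% in Tead1/2 mutants. Myom1 came next, with 90.8%, 93.0% and 71.2% in Insm1 mutants. In Insm1 control 1 the 4 cells of these clusters gave 63.5% of the Ttn UMIs, and in Insm1 control 2, 2 cells gave 41.6%. The summed Ttn levels of the Insm1 controls thus turn on very few cells.

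Clusters 1, 30 and 27 differed in the levels of the scaffold genes. Cluster 1 (2042 cells, skeletal myogenic-like) had a median of 5224.5 UMIs per cell, cluster 30 (1488 cells, unnamed) 6927.5 and cluster 27 (1385 cells, skeletal myogenic-like) 14868. Each was made up of mutant cells except for 1, 2 and 2 control cells. Cluster 25 (72 cells, unnamed) came almost whole from Insm1 mutant 2, which gave 70 of its cells, and cannot be told apart from that library. CPM values below are medians, or ranges where stated, over the mutant libraries with at least 20 cells in the cluster. Shares and gene numbers of thinned cells in these clusters pool the cells of all mutant libraries. In cluster 27, 1163 of the 1385 cells came from Tead1/2 mutants. The clusters are described without a test, since they were formed from the same cells.

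Ttn was present in all 3 of these clusters. Its level was 3398 CPM in cluster 1 (2193 to 4508), 28711 CPM in cluster 30 (25273 to 35406) and 51075 CPM in cluster 27 (43809 to 56469). The ranges over libraries did not overlap between neighbours in this order. Neb was at 18.8 CPM in cluster 1, 381 CPM in cluster 30 and 6210 CPM in cluster 27. Mybpc1 was at 44.4, 102 and 3532 CPM in the same order. The medians of Neb and Mybpc1 were also ordered this way. The Mybpc1 ranges of cluster 1 (12.4 to 67.8 CPM) and cluster 30 (44.1 to 134 CPM) overlapped.

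Mybph had a median of 214 CPM in cluster 27. In cluster 1 it was at 0.655 to 7.66 CPM and in cluster 30 at 3.39 to 29.7 CPM, and these ranges overlapped. Within cluster 30 the alleles lay apart, at 3.39 to 6.48 CPM in Insm1 mutants and 16.2 to 29.7 CPM in Tead1/2 mutants. The myomesins were intermediate, with 134, 226 and 217 CPM in cluster 30 for Myom1, Myom2 and Myom3, against 729, 742 and 869 CPM in cluster 27. Ldb3 had 2.78, 78.9 and 739 CPM. Tcap was at 0 in the median library of clusters 1 and 30 and at 9.10 CPM in cluster 27. Myog, the myogenic differentiation factor, had medians in the opposite order, with 710, 605 and 188 CPM, although its ranges in cluster 1 (289 to 787 CPM) and cluster 30 (332 to 668 CPM) overlapped. Embryonic myosin Myh3 had 150, 3729 and 11919 CPM in the same order.

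With each cell thinned to 2000 UMIs, 56.7% of mutant cells in cluster 1 had a Ttn UMI and 3.78% a Neb UMI. In cluster 30 the shares were 99.5% for Ttn, 31.0% for Myom2, 16.2% for Neb and 7.81% for Mybpc1. In cluster 27 they were 100% for Ttn, 96.5% for Mybpc1, 92.1% for Neb, 79.3% for Myom3, 75.0% for Myom2, 72.2% for Ldb3, 70.0% for Myom1, 31.5% for Mybph and 1.16% for Tcap. A thinned cell held a median of 1 of the 9 genes in cluster 1, 2 in cluster 30 and 6 in cluster 27.

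Where the Ttn UMIs lay also differed between libraries. Cluster 27 gave 68.4%, 74.9% and 36.0% of the kept-cell Ttn UMIs in the Insm1 mutants and 84.3%, 74.1% and 81.3% in the Tead1/2 mutants. It held 106, 100 and 14 kept cells in the Insm1 mutants and 433, 398 and 332 in the Tead1/2 mutants, so that Insm1 mutant 3 had the fewest. Marked doublets were not clustered. Scrublet removed 81.9% of the barcodes with at least 1000 CPM of Ttn in that library, against 63.9% and 66.6% in Insm1 mutants 1 and 2. The part of this removal in the cell numbers was not tested. Within cluster 30, Ttn was at 25273 to 26720 CPM in Insm1 mutants and at 30702 to 35406 CPM in Tead1/2 mutants. Within cluster 1, Mybpc1 was at 12.4 to 27.03 CPM in Insm1 mutants and at 61.8 to 67.8 CPM in Tead1/2 mutants, and the ranges did not overlap (n = 3 libraries each). In cluster 27, Ttn also lay apart, at 43809 to 50797 CPM in 2 Insm1 mutants and 51075 to 56469 CPM in the Tead1/2 mutants. There the alleles overlapped for Neb, Mybpc1, Mybph, Myom1, Myom2, Myom3 and Ldb3, with Mybpc1 at 3532 to 3595 CPM in Insm1 mutants and at 3406 to 3628 CPM in the Tead1/2 mutants. Neb and the 3 myomesins overlapped in clusters 1 and 30 as well, and Ldb3 in cluster 1. In cluster 1 the alleles also lay apart for Ttn (2193 to 2846 against 3950 to 4508 CPM). So they did there for Mybph (0.655 to 5.87 against 6.46 to 7.66 CPM). In cluster 30, Mybpc1 (44.1 to 92.6 against 112 to 134 CPM) and Ldb3 (61.4 to 76.9 against 80.9 to 139 CPM) lay apart. Insm1 mutants were lower in each of these pairs of gene and cluster. Among other muscle genes in cluster 1, embryonic myosin Myh3 was also lower in them (58.3 to 124 against 176 to 197 CPM). The myoblast determination factor Myod1 was higher in them (49.8 to 62.1 against 22.1 to 41.5 CPM). How many of all genes separate the alleles in these clusters was not counted, so no general difference between the alleles is read from these pairs. These differences were not tested.

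**Figure D4:**
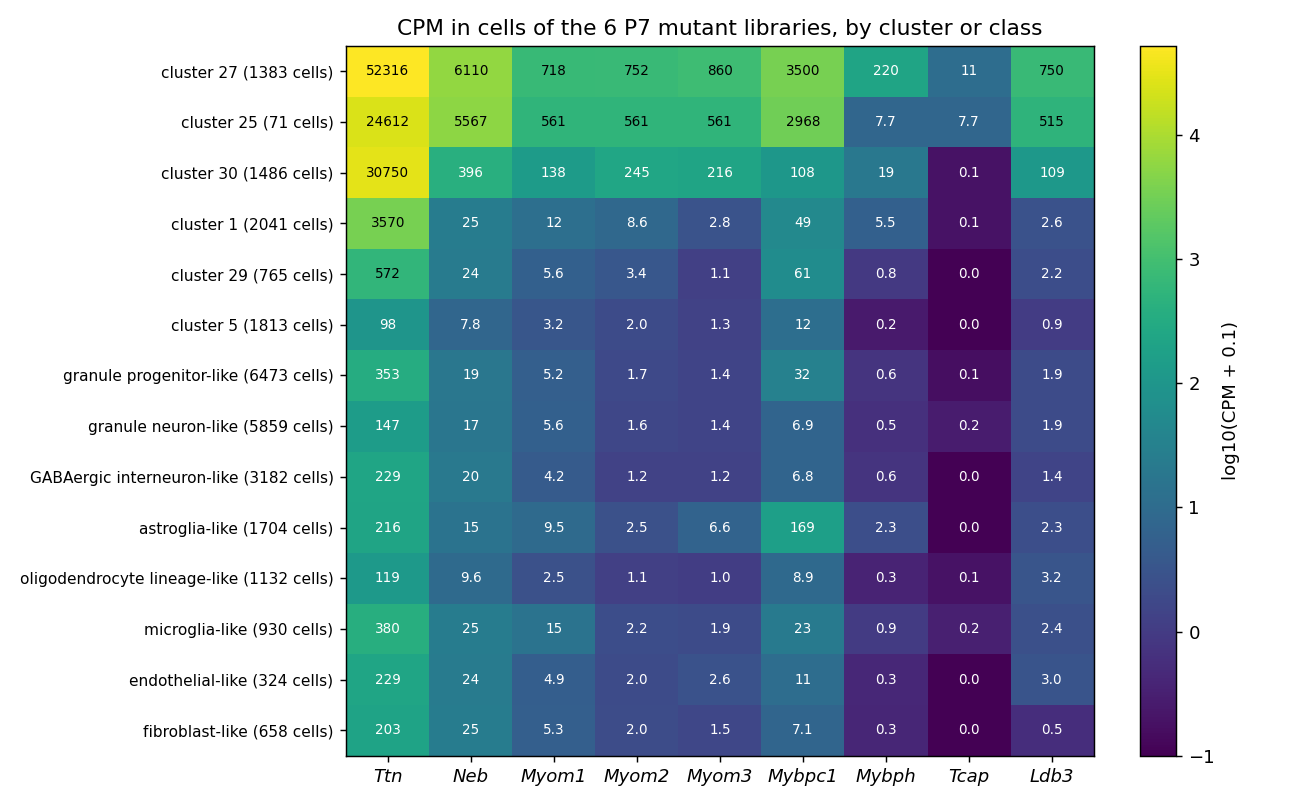
Level of each scaffold gene (CPM printed in each cell, colour on a log10 scale) over the cells of the 6 P7 mutant libraries, by cluster or cell class. Ttn is high in clusters 1, 25, 27 and 30, whereas Neb and Mybpc1 are high in clusters 25 and 27, and Mybpc1 is also seen in astroglia-like cells.

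Outside clusters 1, 25, 27 and 30 the differences were much smaller. There 3 of 8 tested genes were called for Insm1 (Myom1, Myom3 and Mybpc1) against 13.5% of all genes, and 7 of 8 for Tead1/2 against 16.4%. Ttn differed by 0.96 (edgeR adjusted p = 0.158) for Insm1. For Tead1/2 it had 45.3 and 59.5 CPM in controls and 162, 602 and 230 CPM in mutants, and differed by 2.67, or by 1.92 without Tead1/2 mutant 2 (SE 0.17, adjusted p = 6.76e-05). Within cells named granule progenitor-like or granule neuron-like, again 3 of 8 were called for Insm1 (12.8% of 16288 genes called higher) and 7 of 8 for Tead1/2 (10.6%). Of the 3, Myom3 was close to the threshold (1.14, edgeR adjusted p = 0.0489) and was not called with RLE size factors (adjusted p = 0.0519). Leaving out Insm1 control 2 left Mybpc1 as the 1 gene called for Insm1, and Myom3 was called in only 1 of the 5 fits with a library left out, that without mutant 2. Some of the 7 Tead1/2 calls rest on few UMIs. Mybph had 4 and 5 in controls and 9, 10 and 15 in mutants, and was called in 2 of 6 alternative fits. Myom3 had 18 and 11 against 24, 24 and 25, and was called in 3 of 6. For Tead1/2, leaving out control 1 left 3 genes called and leaving out control 2 left 4. These fits with a library left out were added after seeing the data. Clusters 13, 17, 18 and 24 of this class held 1348, 1818, 1934 and 1367 cells, of which 0, 0, 1 and 3 came from controls. The class is thus not made of the same clusters in both groups. Clusters 13 and 18 each carried 2 of the 21 skeletal myogenic markers. So did the unnamed clusters 5 and 29, with 13 of 1826 and 0 of 765 cells from controls. Both are outside this class but count among the cells outside clusters 1, 25, 27 and 30.

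In the granule lineage, Ttn had 41.3 and 41.9 CPM in Insm1 controls and 80.1, 90.8 and 85.0 CPM in the mutants, a difference of 1.04 (SE 0.50, adjusted p = 0.175). For Tead1/2 it had 45.3 and 55.6 CPM against 144, 729 and 222 CPM (2.86, SE 0.52, adjusted p = 0.00156), or 1.86 without Tead1/2 mutant 2 (SE 0.16, adjusted p = 9.03e-06). Ttn UMIs were also found in microglia-like cells. The source of the Ttn UMIs in granule lineage or microglia-like cells was not tested. With cells thinned to 2000 UMIs, 13.9%, 13.2% and 13.1% of granule lineage cells of the Insm1 mutants had a Ttn UMI, against 22.4%, 24.1% and 16.2% of microglia-like cells, of which each mutant library held 37 to 310. In the Tead1/2 mutants the shares were 21.5%, 31.2% and 18.0% against 28.1%, 35.5% and 25%. Tead1/2 mutant 2, with the highest granule level, had 746 CPM of Ttn in its microglia-like cells. The granule share was below the microglia share in all 6 mutants. In controls the shares were 8.16% to 8.87% in the granule lineage and 3.87% to 15.4% in microglia-like cells, of which control libraries held 13 to 161. Median depths in mutants were 5927 UMIs for the thinned granule lineage cells and 4663 for the microglia-like cells.

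Mybpc1 had a different spread over cell classes. In astroglia-like cells it was already present in controls, with 119 and 115 CPM in the Insm1 controls and 96.5 and 47.5 CPM in the Tead1/2 controls. The mutants had 166, 184 and 168 CPM and 176, 146 and 171 CPM. In granule lineage cells it had 5.97 and 2.62 CPM in Insm1 controls and 13.5, 19.6 and 14.3 CPM in mutants (1.81, SE 0.26, adjusted p = 0.00028). For Tead1/2 it had 3.81 and 3.07 CPM against 22.4, 26.1 and 21.9 CPM (2.76, SE 0.26, adjusted p = 6.98e-06). Over all mutants, 4.38% of thinned granule progenitor-like cells had a Mybpc1 UMI, against 1.14% of granule neuron-like, 1.18% of GABAergic interneuron-like and 3.72% of microglia-like cells. In controls these shares were 0.778%, 0.539%, 0.732% and 3.72%. By allele, the granule progenitor-like share was 4.01% in Insm1 mutants and 4.56% in Tead1/2 mutants, against 4.29% and 3.61% of microglia-like cells. The microglia-like shares rest on few cells and ranged from 0% to 6.12% over the mutant libraries and from 0% to 4.69% over the control libraries, so no order between these 2 classes is read from them.

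Barcodes with 10 to 99 UMIs, too few for a cell, also carried scaffold transcripts. The 9 genes summed to 988 and 820 CPM there in Insm1 controls and to 5622, 6185 and 5304 CPM in the mutants. In Tead1/2 libraries they summed to 1692 and 1959 CPM in controls and to 14773, 16089 and 10588 CPM in mutants. Over all barcodes the sums were 141 and 100 CPM in Insm1 controls and 4957, 5797 and 4877 CPM in Insm1 mutants. For Tead1/2 they were 189 and 220 CPM in controls and 18169, 16545 and 11620 CPM in mutants. In controls the level was thus higher in low-count barcodes than over all barcodes. The part of low-count barcodes in the values outside the 4 clusters was not tested.

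Cells with UMIs of at least 2 of the 9 genes, after thinning to 2000 UMIs, made up 0.694% and 0.446% of Insm1 control cells and 5.95%, 6.41% and 4.55% of mutant cells. In Tead1/2 libraries the shares were 0.467% and 0.504% in controls and 13.7%, 17.5% and 12.6% in mutants. Mutants and controls did not overlap for either allele. The mean differences were 5.07 and 14.1 percentage points, with a two-sided exact permutation p of 0.2 for each, which is the smallest that 2 against 3 libraries can give. Without thinning the shares were 3.17%, 1.79%, 11.5%, 13.9% and 12.01% for the Insm1 libraries and 3.13%, 3.82%, 24.3%, 32.9% and 25.2% for the Tead1/2 libraries, in the same order. Thinning left out 24 to 168 kept cells per library. With doublets kept and cells thinned, the shares were 10.1%, 10.8% and 11.9% in the Insm1 mutants and 19.7%, 28.7% and 18.6% in the Tead1/2 mutants. The Insm1 controls then had 0.521% and 0.335% and the Tead1/2 controls 0.379% and 0.457%. Insm1 mutant 3, the lowest Insm1 mutant in kept cells, was the highest with doublets kept.

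Outside clusters 1, 25, 27 and 30 the differences in that share were 1.17 and 2.90 points. Of thinned granule lineage cells 2.25% in mutants and 0.400% in controls held at least 2 of the 9 genes. The corresponding values were 3.95% and 1.12% in microglia-like cells, 2.23% and 0.563% in GABAergic interneuron-like cells and 6.54% and 2.44% in astroglia-like cells. These shares pool both alleles, which make up different parts of each class, so no order of the classes is read from them. By allele, the mean granule lineage share over mutant libraries was 1.37% for Insm1 and 2.92% for Tead1/2, against 0.337% and 0.448% in controls.

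**Figure D5:**
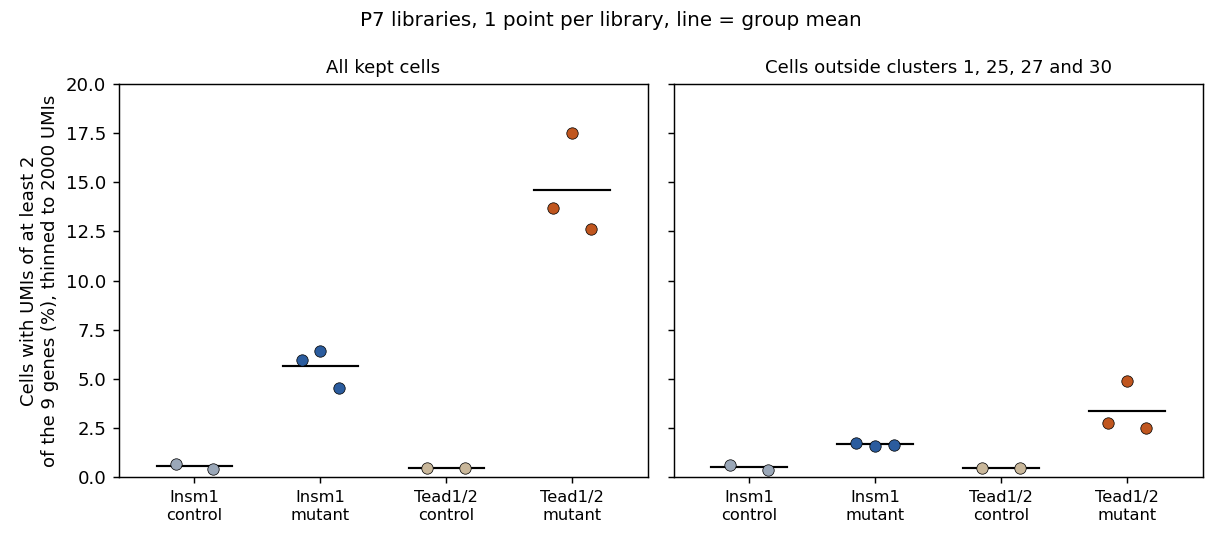
Share of P7 cells (%) with UMIs of at least 2 of the 9 scaffold genes after thinning to 2000 UMIs, 1 point per library and a line at the group mean, for all kept cells and for cells outside clusters 1, 25, 27 and 30. Tead1/2 mutants lie at 12.6% to 17.5% over all cells, Insm1 mutants at 4.55% to 6.41% and all controls below 0.7%.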

How the data were processed

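The members and gene lists were chosen with earlier results of these data known. For P2 bulk RNA the authors deposited expected counts from RSEM, without scaling to library depth. The submitters' processing notes name Trim Galore 0.6.3, STAR 2.7.9a, RSEM 1.3.3 and the builds GRCm38.p6 and mm10. The table named for INSM1 holds the Tead1/2 columns and the reverse, so columns were matched by name, with 0 unmatched. Of 55665 entries, 92 ERCC entries were left out. For P7 the authors deposited raw UMI counts per barcode, unfiltered, in 10 libraries of 1 sample, and the gene tables name a GRCm39 build. The 13 ATAC-seq and 24 CUT&RUN samples were not analysed here.

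Expected counts, of which 6.84% to 8.77% per library are not whole, were rounded. The quasi-likelihood test of edgeR 4.0.16 in R 4.3.3 used TMM factors and filterByExpr, per allele at P2 and over all 15 libraries for the difference between alleles. CPM values use TMM-scaled library sizes for P2 libraries, for P7 libraries, for the granule lineage and for cells outside the muscle clusters, and plain UMI totals for single clusters, other cell classes and low-count barcodes. DESeq2 1.42.0 was an alternative, and the fits were tested on simulated data. P-values measure the spread between libraries of single animals. The main fits hold no term for dissection or sex, so these enter that spread where they vary.

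A P7 barcode was used when it held 1000 UMIs or more in 500 genes or more and mitochondrial UMIs stayed under 15% (scanpy 1.11.5, Python 3.11.15). Scrublet's marked doublets were removed, with a share too high to be taken as a true doublet rate. Cells were clustered on 2000 variable genes and 30 components, with 15 neighbours and resolution 1. A cluster was named from markers at least 1.5 times higher and in at least 10% of its cells. UMI counts summed per library were fitted over all 10 libraries in edgeR. The genes named in the text are all 9 members, the 5 genes nearest to Ttn in profile with a mean of at least 1 CPM (pseudocount 0.5 CPM), and partner genes fixed by list, Obsl1, Nebl and Nrap always and otherwise the 3 called with the largest change in a comparison; 1 partner gene is not reported here by name. Actn2 and Des, and Myog, Myh3, Mymk, Myod1 and Acta1 from the skeletal myogenic markers, were chosen after their values were seen. The targeted genes and Xist are given as checks. Alternatives were other size factors, no low-count filter, a replicate block, a sex term, all libraries in 1 fit, doublets kept, 500 UMIs as the minimum and each library left out in turn. Fits of the granule lineage with a library left out, and of cells outside the muscle clusters without 1 library, were added after seeing the data.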

Additional observations from a re-analysis of the deposited data

Results flagged for a closer look

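Of 27 groups of 4 P2 libraries tested for a single value far from the others, 2 stood out, and chance gives about 1 in 20. Myom2 was at 0.128 CPM in the library labelled Tead1/2 mutant 4, and the nearest of the other Tead1/2 mutants was at 0.823 CPM. This library is also the one whose Tead2 level goes against its label. Ldb3 was at 1.25 CPM in Tead1/2 mutant 1, below the nearest value of 1.44 CPM, in a gene whose change did not pass.

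The effects of both alleles on Ttn at P7 differed by -2.69 on the log2 scale (Insm1 minus Tead1/2, edgeR adjusted p = 0.0186), with mutants above controls in 3 of 3 libraries of each allele. Over 17 alternatives it was called in 13. It was not called without Insm1 control 1 (-2.29), Tead1/2 control 1 (-2.4996) or Tead1/2 control 2 (-2.89), nor over cells outside clusters 1, 25, 27 and 30 (-1.71).

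Barcodes of 10 to 99 UMIs, which no comparison used, carried scaffold transcripts above the controls. Their summed level had a median of 5622 CPM over the Insm1 mutants, against 988 CPM in the highest Insm1 control. It had a median of 14773 CPM over the Tead1/2 mutants, against 1959 CPM in the highest Tead1/2 control. Over all barcodes the same controls had 141 and 220 CPM. The cause of the levels in low-count barcodes was not tested.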

How the results depend on the processing

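Of 827 alternative values of single scaffold genes, 725 kept their direction and side of the threshold, 62 lost the call, 36 gained it and 4 turned. Insm1 at P2 (6 genes called) gave 1 with a replicate block and 2 to 6 when each library was left out in turn. Tead1/2 at P2 (0 called) gave 1 in DESeq2, 2 without the low-count filter, 2 with a replicate block and 0 to 3 with each library left out, the 3 without the library labelled mutant 4. The difference between alleles at P2 was called for 0 genes throughout. Insm1 at P7 (9) gave 3 over cells outside clusters 1, 25, 27 and 30, chosen after seeing the data, 8 with a replicate block and 8 to 9 with each library left out, and Tead1/2 at P7 gave 9 to 9. The difference at P7 (1) gave 6 in DESeq2, 8 without the low-count filter, 3 with a replicate block, 8 with doublets kept, 0 outside those clusters and 0 to 8 with each library left out. DESeq2 moved the median of all genes in the P2 difference from -0.0054 to 0.11. Over all genes it called 314 against 135 (Insm1 P2), 1026 against 0 (Tead1/2 P2) and 1126 against 554 (P7 difference). The turned values were the P2 difference between alleles for Mybpc1, at -0.036 without the library labelled Tead1/2 mutant 4 and up to 0.116 without others, the P7 difference for Myom1, at 0.31 outside the clusters, that for Tcap, at 2.29 without Insm1 control 1 and down to -1.99 without others, and Mybph in the Insm1 granule lineage, at -0.0038 without Insm1 mutant 3 and up to 0.78 without others. In the granule lineage the calls were 1 to 3 for Insm1 (3) and 3 to 7 for Tead1/2 (7) with each library left out, chosen after seeing the data. The causes were not tested. Same-numbered libraries did not deviate together (correlations -0.243 to 0.382 at P2 and -0.228 to -0.0196 at P7), so the numbers were not taken as pairs, although at P7 number 1 also marks the dissection with all lobules. The share differences moved from 4.68 to 5.61 and from 12.7 to 15.1 points with each library left out. They moved more with other settings. With doublets kept they were 10.5 points for Insm1 and 21.9 for Tead1/2, and with at least 3 genes required 2.87 and 9.57. Depth limits Tcap, Mybph and Myom2 at P2.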

Other observations

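Other muscle genes in clusters 1, 30 and 27 of the P7 mutants are given here as values. Over mutant libraries with at least 20 cells in a cluster, Mymk, which drives myoblast fusion, had medians of 161 CPM in cluster 1, 208 CPM in cluster 30 and 151 CPM in cluster 27. The ranges were 146 to 210, 160 to 229 and 130 to 157 CPM, and that of cluster 1 overlapped both others. Myod1, the myoblast determination factor, had medians of 45.6, 31.9 and 32.9 CPM with overlapping ranges. Acta1, the skeletal alpha-actin gene, had medians of 4.98, 98.6 and 935 CPM with ranges that did not overlap. Within cluster 30, Myh3 was at 2789 to 3218 CPM in Insm1 mutants and at 4241 to 5092 CPM in Tead1/2 mutants, whereas Acta1 (88.0 to 142 and 79.4 to 99.5 CPM), Mymk and Myod1 overlapped between the alleles, with 3 libraries of each and no test.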
